A study of Mus musculus with 35 samples.

Results

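The TALE homeobox genes Meis1, Meis2, Meis3, Pbx2, Pbx3, Pbx4, Pknox1, Tgif1 and Tgif2 were followed in mouse hematopoietic stem and progenitor cells (HSPC) that expressed a NUP98–HOXA9 fusion or a mutant of it. The members were chosen by symbol, with earlier results of these data known, and found as 9 of the 49671 rows of the gene count table. Of them, 8 passed the filter on low counts, Meis2 being the exception. Pbx3 stood apart from the other members: its mean level was 9.85-fold higher in G-NHA9 than in the empty vector, and no library of any other group came near the G-NHA9 libraries. Meis1 was 2.65-fold higher in G-NHA9, 2.32-fold higher in G-NHA9–21FGAA and 1.77-fold higher in G-NHA9–ΔDNA, whereas its paralog Meis3 was lower than in the empty vector in G-NHA9, G-NHA9–8FA and G-NHA9Midi.

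TALE proteins carry a homeodomain with an insertion of a few residues in its loop, and some of them bind DNA together with HOX proteins. PBX proteins dimerize with HOX proteins, and MEIS and PKNOX (PREP) proteins bind PBX partners through their N-terminal part and help to keep them in the nucleus. TGIF proteins bind a DNA core like that of MEIS and act as transcriptional repressors. In blood, Meis1 is active in stem cells and megakaryocytes, and Meis1 and Pbx3 are known as cofactors of HOXA9 in myeloid leukemia.

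All 35 RNA-seq libraries came from bone marrow cells of C57Bl/6 mice of both sexes, isolated as lineage negative, transduced with a lentiviral vector and grown for 1 week in methylcellulose (Methocult M3434) that also held GM-CSF at 10 ng/mL. The mice were 8 weeks old for 32 libraries; empty vector libraries 4 and 5 came from mice of 9 and 10 weeks, and G-NHA9 library 1 from mice of 11 weeks. Each of the 7 groups had 5 libraries. The empty vector (Empty in the labels) expressed no fusion, and its cells were sorted on the mCherry marker of the vector. In the other groups cells were sorted on mCherry and mEGFP, and each construct carried an mEGFP tag: G-NHA9 (G-NHX9) was the full NUP98–HOXA9 fusion; G-NHA9–8FA (G-NHX9-8FA) had phenylalanines, and G-NHA9–21FGAA (G-NHX9-21FGAA) phenylalanine–glycine (FG) pairs, changed to alanine in the C-terminal part of the NUP98 segment; G-NHA9Midi (G-NHX9-midi) was a shortened fusion that kept this C-terminal part and lacked the GLEBS domain, and G-NHA9Midi–21FGAA (G-NHX9-midi-21FGAA) was the same with the FG pairs mutated; G-NHA9–ΔDNA (G-NHX9-DDNA) had a HOXA9 homeodomain altered to weaken its binding to DNA. Nothing in the labels or methods ties a library to an animal or culture, so the p-values measure the spread between these libraries, which may be partly technical. The cells were a mixed population, in which fewer cells of a type and less RNA per cell cannot be told apart.

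Total counts per library lay between 31559914 and 75810659, and levels are given as CPM, counts scaled to a common library total, on TMM-scaled library sizes, a scale on which 3 counts correspond to 0.0382 to 0.0996 CPM depending on the library. Although the cells were lineage negative when isolated, markers of maturing cells were abundant in every group after the culture: 10 late neutrophil genes (Ltf, Camp, S100a8 and others) summed to between 5658 and 33771 CPM, while 5 B cell genes summed to at most 1.64 CPM. No pair of libraries within a group was a duplicate.

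The members lie on 5 chromosomes of the mm10 build. Meis1 spans chr11:18879817-19018985 on the minus strand, Meis2 chr2:115863064-116065839 (minus) and Meis3 chr7:16175090-16186504 (plus). Pbx2 lies at chr17:34591266-34597400 (plus), Pbx3 at chr2:34171457-34373142 (minus) and Pbx4 at chr8:69832491-69872292 (plus). Pknox1 was annotated at chr17:31564734-31607693 (plus), Tgif1 at chr17:70844205-70853546 (minus) and Tgif2 at chr2:156840007-156855570 (plus). Exons of Meis1 overlap those of Gm37818 and exons of Pbx2 those of Gpsm3 on the same strand. Counts of Meis1 and Pbx2 are uncertain to that extent under any strand setting. On the other strand, exons of Meis1 overlap those of Gm16140, and exons of Pknox1 those of AC166172.4. Exons of Tgif2 overlap those of 5430405H02Rik and Gm37790 on the other strand. The strand setting of the read counting is not given in the sources used here. Counts of Meis1, Pknox1 and Tgif2 are therefore uncertain as far as these opposite-strand overlaps go.

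Sequence before the start site is shown for 3 members that were higher in G-NHA9, Meis1, Pbx4 and Tgif2, and for Tgif1, the one member whose windows held a TALE motif. RefSeq promoter windows of 300 bases (250 before the start to 50 after it, GRCm38.p6, the same coordinates as mm10) were matched for 7 of the 9 members, 11 windows in all; Pbx3 and Pknox1 had no entry. The stretches printed 5′ to 3′ are the parts of the windows that lie outside annotated exons, in lower case, with a motif in capitals.
Meis1, chr11:19018986-19019219, minus strand: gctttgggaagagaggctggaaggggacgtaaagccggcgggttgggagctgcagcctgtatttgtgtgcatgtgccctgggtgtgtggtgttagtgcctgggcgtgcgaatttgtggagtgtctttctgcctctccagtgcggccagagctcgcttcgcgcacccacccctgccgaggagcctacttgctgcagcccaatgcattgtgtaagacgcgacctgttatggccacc
Pbx4, chr8:69832374-69832490, plus strand: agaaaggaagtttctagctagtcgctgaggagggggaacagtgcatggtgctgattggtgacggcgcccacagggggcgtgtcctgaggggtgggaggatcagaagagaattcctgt
Tgif2, chr2:156839757-156840006, plus strand: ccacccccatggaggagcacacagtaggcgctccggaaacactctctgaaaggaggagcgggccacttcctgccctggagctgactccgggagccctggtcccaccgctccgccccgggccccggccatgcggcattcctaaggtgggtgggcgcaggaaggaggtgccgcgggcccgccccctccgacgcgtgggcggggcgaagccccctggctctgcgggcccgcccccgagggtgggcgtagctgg
Tgif1, chr17:70849815-70850040, minus strand: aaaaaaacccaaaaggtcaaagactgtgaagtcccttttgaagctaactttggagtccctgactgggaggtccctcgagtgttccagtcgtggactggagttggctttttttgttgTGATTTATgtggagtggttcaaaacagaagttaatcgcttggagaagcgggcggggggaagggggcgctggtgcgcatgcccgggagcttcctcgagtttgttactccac
The windows were searched on both strands for TGACAG, the core bound by MEIS and TGIF proteins, and for TGATNNAT, a site of HOX with PBX; the motifs share their first letters but do not overlap in these windows. TGATNNAT occurred in 1 of the 5 Tgif1 windows, as TGATTTAT starting at position -134 from the start site (capitals above), and TGACAG in 2 other Tgif1 windows, after the start site. The windows of Meis1, Meis2, Meis3, Pbx2, Pbx4 and Tgif2 held neither. Of all 32851 RefSeq promoter windows of that length, 19.2% held TGACAG and 8.85% TGATNNAT. The Tgif2 window was 72.3% G and C, the Meis1 window 58.3% and the Pbx4 window 59.3%, and the median over all windows was 52.7%.

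To see which constructs moved the TALE cofactors, each was compared with the empty vector, with edgeR's quasi-likelihood test and Benjamini-Hochberg adjustment over all 17166 genes that passed the filter, at an adjusted p under 0.05. Of the 8 members tested, G-NHA9 had 4 of 8 higher against 16.9% of all genes tested, and 2 lower against 15.2%; the members' median log2 fold change was 0.76, and that of all genes 0.01. G-NHA9–21FGAA, in which every tested member passed, had 5 of 8 higher against 14.7% of all genes tested, and 3 lower against 12.5% (median 0.54 for the members). The counts in G-NHA9–8FA were 4 of 8 higher against 13.4% of all genes tested, and 1 lower against 13.2% (median 0.35). G-NHA9Midi gave 4 of 8 higher against 20.5% of all genes tested, and 1 lower against 20.0% (median 0.30). With the FG pairs mutated as well, G-NHA9Midi–21FGAA had 3 of 8 higher against 9.59% of all genes tested, and 1 lower against 7.32% (median 0.23). In G-NHA9–ΔDNA the counts were 3 of 8 higher against 9.85% of all genes tested, and 2 lower against 7.35% (median 0.16). The comparisons with the empty vector share its 5 libraries. Since the members were chosen with earlier results of these data known, their excess over all genes is no independent evidence.

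Each mutant of the full-length fusion was then set against G-NHA9. G-NHA9–8FA had 2 of 8 higher against 6.43% of all genes tested, and 2 lower against 8.04%. G-NHA9–21FGAA differed in fewer members, 1 of 8 higher against 8.91% of all genes tested, and 2 lower against 8.34%. For G-NHA9Midi the counts were 2 of 8 higher against 8.50% of all genes tested, and 4 lower against 11.2%, and for G-NHA9–ΔDNA they were 1 of 8 higher against 10.7% of all genes tested, and 4 lower against 11.4%. Mutating the FG pairs of G-NHA9Midi moved 2 of 8 higher against 21.0% of all genes tested, and 3 lower against 22.2%. G-NHA9–21FGAA against G-NHA9–8FA, which differ in which residues are mutated, gave 2 of 8 higher against 15.3% of all genes tested, and 3 lower against 17.1%. G-NHA9Midi and G-NHA9–8FA had the fewest calls of the 7 pairs of constructs compared, both over all genes and for the members: 1 of 8 higher against 1.51% of all genes tested, and 1 lower against 2.74%.

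**Figure D1:**
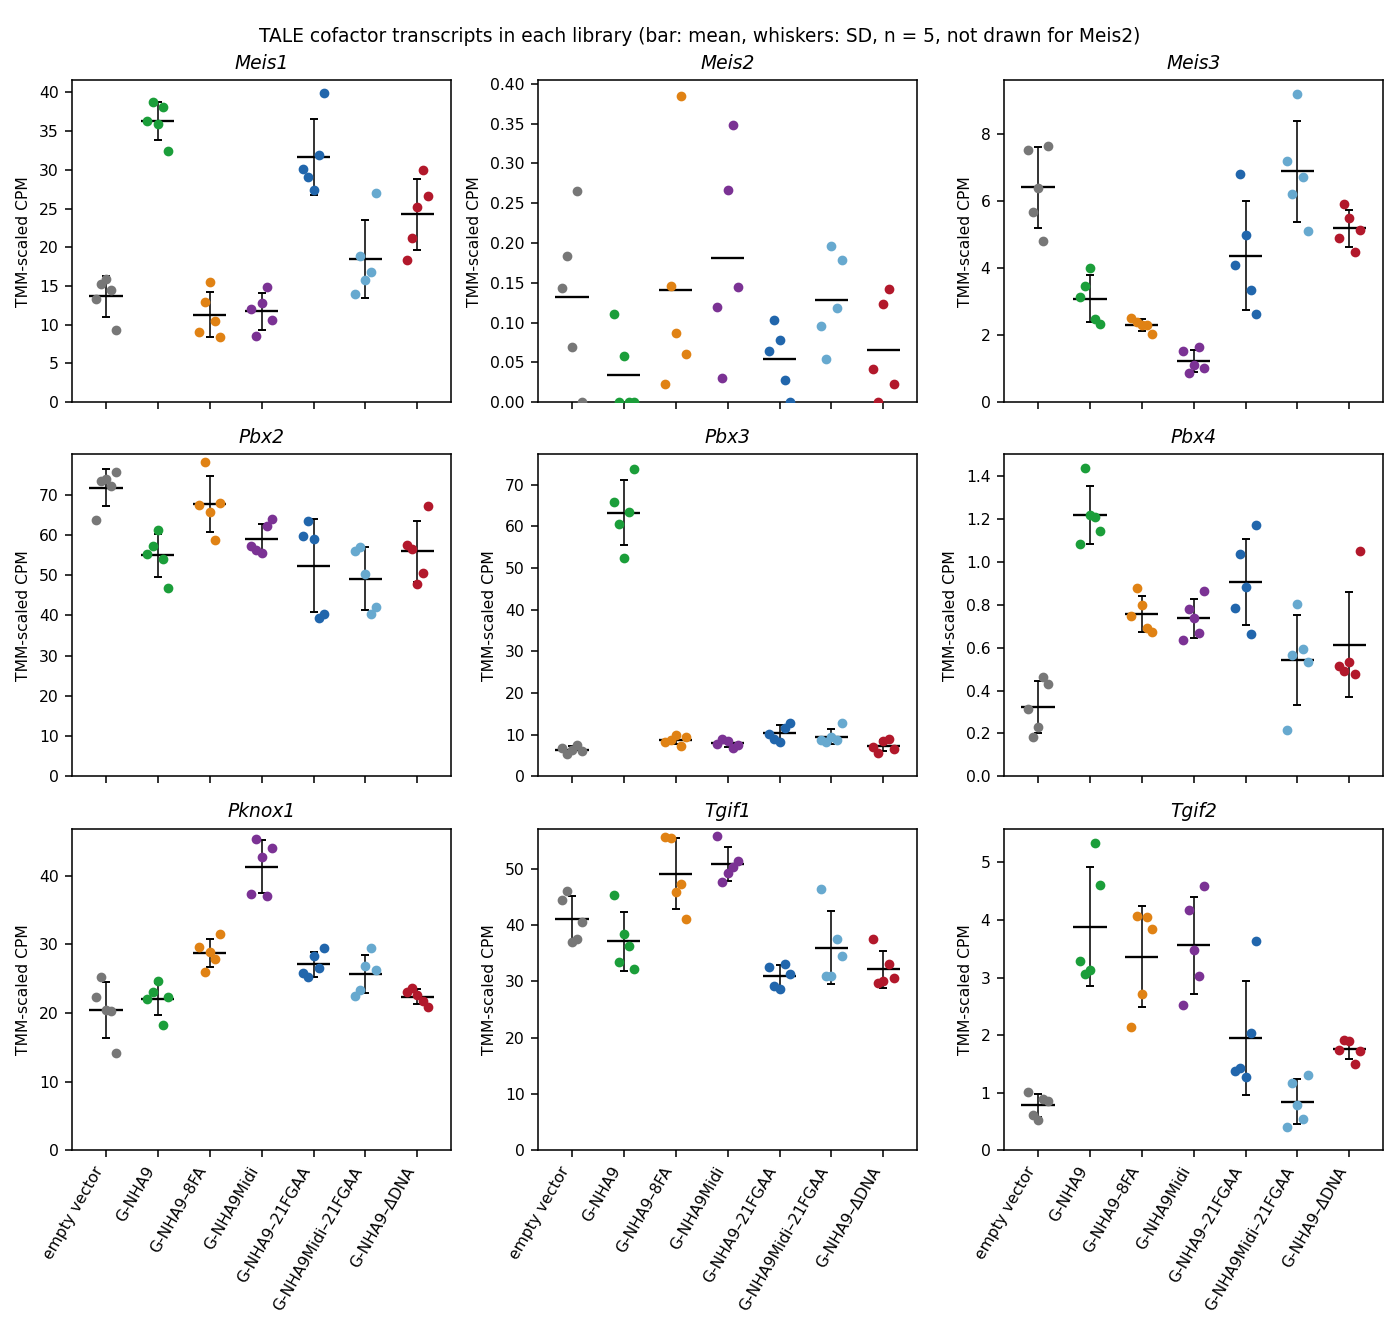
TMM-scaled CPM (vertical axes, linear, from 0) of the 9 TALE members in each of the 35 libraries, grouped by construct along the horizontal axis; points are libraries, bars are group means and whiskers the SD (n = 5), not drawn for Meis2. The 5 G-NHA9 libraries of Pbx3 lie at 52.4 to 73.9 CPM, while the highest library of any other group is at 12.9 CPM.

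Meis1, which stabilizes HOX–PBX complexes on DNA, was present in all libraries. In the empty vector it stood at 13.4, 15.3, 15.9, 14.5 and 9.30 CPM (mean 13.7 ± 2.61 CPM, SD, n = 5). In G-NHA9 the libraries gave 36.3, 38.8, 35.9, 38.1 and 32.4 CPM (mean 36.3 ± 2.48 CPM, SD, n = 5), all above every empty vector library (log2 fold change, 1.41 ± 0.18 (SE); adjusted p = 2.20e-07). G-NHA9–21FGAA libraries had 30.04, 29.0, 27.4, 31.9 and 39.99 CPM (log2 fold change, 1.21 ± 0.18 (SE); adjusted p = 1.15e-05). They too lay above every empty vector library, and they overlapped the G-NHA9 libraries; the difference from G-NHA9 did not pass the test (log2 fold change, -0.20 with a 95% interval of -0.54 to 0.14; adjusted p = 0.538).

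The homeodomain mutant also had Meis1 above the empty vector without overlap: G-NHA9–ΔDNA libraries were at 18.3, 21.2, 25.2, 29.96 and 26.7 CPM (log2 fold change, 0.83 ± 0.18 (SE); adjusted p = 0.00207). All 5 lay below every G-NHA9 library (log2 fold change, -0.58 ± 0.17 (SE); adjusted p = 0.0144). The call was lost without G-NHA9–ΔDNA library 1 (adjusted p = 0.0532). The other 3 groups overlapped the empty vector: G-NHA9–8FA libraries gave 9.04, 13.0, 15.5, 10.5 and 8.40 CPM (log2 fold change, -0.27 with a 95% interval of -0.62 to 0.07; adjusted p = 0.274). G-NHA9Midi libraries had 12.1, 8.49, 12.7, 14.9 and 10.6 CPM (log2 fold change, -0.22 with a 95% interval of -0.56 to 0.13; adjusted p = 0.344), within the range of G-NHA9–8FA (log2 fold change, 0.06 with a 95% interval of -0.29 to 0.40; adjusted p = 0.929). G-NHA9Midi–21FGAA libraries spread from 13.9 to 26.9 CPM, 3 of them above every empty vector library (log2 fold change, 0.44 with a 95% interval of 0.09 to 0.78; adjusted p = 0.0835).

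Between the constructs, Meis1 was 3.21-fold lower in G-NHA9–8FA and 3.09-fold lower in G-NHA9Midi than in G-NHA9, both without overlap (adjusted p = 5.14e-08 and 4.65e-08 in edgeR's quasi-likelihood test). In G-NHA9–21FGAA it was 2.80-fold higher than in G-NHA9–8FA (log2 fold change, 1.49 ± 0.18 (SE); adjusted p = 8.69e-08), again without overlap. Mutating the FG pairs of G-NHA9Midi went with a level 1.57-fold higher (log2 fold change, 0.65 ± 0.18 (SE); adjusted p = 0.00305), although single libraries of these groups overlapped. When the groups were ordered by mean level of Meis1 (G-NHA9, G-NHA9–21FGAA, G-NHA9–ΔDNA, G-NHA9Midi–21FGAA, empty vector, G-NHA9Midi, G-NHA9–8FA), the libraries of each neighbouring pair overlapped.

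Cell type markers moved over the same groups. The 13 stem and progenitor markers (Cd34, Kit, Procr, Hlf and others) summed to 380.1 to 499 CPM in the empty vector, 714 to 853 in G-NHA9, 684 to 956 in G-NHA9–21FGAA, 432 to 674 in G-NHA9–ΔDNA, 448 to 984 in G-NHA9Midi–21FGAA, 413 to 537 in G-NHA9–8FA and 367 to 507 in G-NHA9Midi. In G-NHA9, 6 of the 12 of these that were tested were higher and 1 lower than in the empty vector. Of all genes tested, 16.9% were higher and 15.2% lower. G-NHA9–8FA had 3 higher and 3 lower (13.4% and 13.2% of all genes), and G-NHA9Midi 4 and 4 (20.5% and 20.0%). The counts were 6 and 0 in G-NHA9–21FGAA (14.7% and 12.5%) and 4 and 0 in G-NHA9Midi–21FGAA (9.59% and 7.32%). G-NHA9–ΔDNA had 3 and 1 (9.85% and 7.35%). The 10 megakaryocyte markers (Pf4, Itga2b, Gp9 and others) summed to 833 to 1488 CPM in the empty vector, 399 to 979 in G-NHA9, 1279 to 2547 in G-NHA9–21FGAA, 770.4 to 1743 in G-NHA9–ΔDNA, 928 to 1529 in G-NHA9Midi–21FGAA, 312 to 399.5 in G-NHA9–8FA and 148 to 270.1 in G-NHA9Midi. Of these 10, 0 were higher and 4 lower than in the empty vector in G-NHA9 (16.9% and 15.2% of all genes tested). G-NHA9–21FGAA had 2 and 0 (14.7% and 12.5%), and G-NHA9–ΔDNA 0 and 0 (9.85% and 7.35%). In G-NHA9Midi–21FGAA they were also 0 and 0 (9.59% and 7.32%). All 10 were lower in G-NHA9–8FA and in G-NHA9Midi, against 13.2% and 20.0% of all genes. The part of either cell type in the Meis1 differences was not tested.

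Meis3, the other MEIS paralog detected at a testable level, was highest in G-NHA9Midi–21FGAA and the empty vector. The empty vector libraries had 7.51, 5.67, 6.38, 4.81 and 7.62 CPM (mean 6.40 ± 1.201 CPM, SD, n = 5). In G-NHA9 it was at 3.14, 3.47, 4.001, 2.47 and 2.31 CPM, below every empty vector library and 2.08-fold lower in the fit (log2 fold change, -1.06 ± 0.20 (SE); adjusted p = 1.28e-04). G-NHA9–8FA libraries were at 2.52, 2.40, 2.29, 2.29 and 2.02 CPM, also below every empty vector library (log2 fold change, -1.47 ± 0.21 (SE); adjusted p = 1.58e-06); they overlapped those of G-NHA9, from which the difference did not pass (log2 fold change, -0.42 with a 95% interval of -0.82 to -0.02; adjusted p = 0.176). The lowest level was that of G-NHA9Midi, at 1.52, 0.870, 1.10, 1.63 and 1.03 CPM, where Meis3 was 5.19-fold lower than in the empty vector (log2 fold change, -2.37 ± 0.21 (SE); adjusted p = 1.63e-10). No G-NHA9Midi library reached a library of any other group, G-NHA9–8FA included (log2 fold change, -0.90 ± 0.21 (SE); adjusted p = 0.0100).

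With the FG pairs of G-NHA9Midi mutated, Meis3 stood at 7.20, 6.21, 9.18, 6.71 and 5.11 CPM, 5.57-fold higher than in G-NHA9Midi and without overlap (log2 fold change, 2.48 ± 0.21 (SE); adjusted p = 3.98e-11). That level overlapped the empty vector (log2 fold change, 0.10 with a 95% interval of -0.28 to 0.49; adjusted p = 0.772). G-NHA9–ΔDNA had 4.90, 5.90, 5.49, 4.47 and 5.13 CPM, above every G-NHA9 library (log2 fold change, 0.75 ± 0.20 (SE); adjusted p = 0.00638) and overlapping the empty vector (log2 fold change, -0.31 with a 95% interval of -0.69 to 0.08; adjusted p = 0.309). In G-NHA9–21FGAA the libraries ranged from 2.63 to 6.79 CPM, overlapping those of the empty vector and of G-NHA9 (log2 fold change, -0.55 ± 0.20 (SE); adjusted p = 0.0364 against the empty vector). That call was lost without TMM scaling (adjusted p = 0.119), with no low-count filter (0.0967), in a fit of these groups alone (0.119), in the 8-week libraries alone (0.0778), without empty vector library 1 (0.0986), 3 (0.0629) or 5 (0.103) or without G-NHA9–21FGAA library 1 (0.0715), 4 (0.114) or 5 (0.162). Against G-NHA9–8FA, Meis3 was 1.89-fold higher in G-NHA9–21FGAA without overlap (log2 fold change, 0.92 ± 0.20 (SE); adjusted p = 6.93e-04).

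G-NHA9, G-NHA9–8FA and G-NHA9Midi, whose Meis3 libraries all lay below the empty vector, were also low in markers of eosinophils and of mast cells and basophils. G-NHA9–21FGAA, where Meis3 was also called lower, was not low in either list. The 7 eosinophil markers (Epx, Prg2 and others) summed to 1387 to 1926 CPM in the empty vector, 285 to 1032 in G-NHA9, 76.6 to 298 in G-NHA9–8FA and 41.8 to 127 in G-NHA9Midi, against 1565 to 2499 in G-NHA9–21FGAA, 827 to 2366 in G-NHA9Midi–21FGAA and 1606 to 2689 in G-NHA9–ΔDNA. For the 9 mast cell and basophil markers (Cpa3, Mcpt8, Fcer1a and others) the sums were 1294 to 3668 CPM in the empty vector, 688 to 1024 in G-NHA9, 605 to 959 in G-NHA9–8FA, 488 to 925 in G-NHA9Midi, 3420 to 4773 in G-NHA9–21FGAA, 2703 to 6397 in G-NHA9Midi–21FGAA and 2662 to 4023 in G-NHA9–ΔDNA. The 10 erythroid markers (Klf1, Alas2 and others) summed to 178 to 568 CPM in the empty vector, 120.4 to 380.5 in G-NHA9, 4.47 to 34.8 in G-NHA9–8FA, 4.03 to 25.4 in G-NHA9Midi, 275 to 1397 in G-NHA9–21FGAA, 383 to 1258 in G-NHA9Midi–21FGAA and 344 to 1307 in G-NHA9–ΔDNA. All 10 erythroid and all 10 megakaryocyte markers were lower than in the empty vector in G-NHA9–8FA and in G-NHA9Midi. Of all genes tested, 13.2% and 20.0% were lower in these groups. All of both lists were higher in G-NHA9Midi–21FGAA than in G-NHA9Midi, against 21.0% of all genes. In G-NHA9, 0 of the erythroid and 4 of the megakaryocyte markers were lower, against 15.2% of all genes. The part of these cell types in the Meis3 differences was not tested.

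Meis2, the remaining MEIS paralog, was close to the detection limit. Its raw counts were 6, 8, 3, 8 and 0 in the empty vector libraries, 4, 0, 2, 0 and 0 in G-NHA9 and 1, 8, 4, 15 and 2 in G-NHA9–8FA. They were 3, 5, 4, 2 and 0 in G-NHA9–21FGAA, 6, 1, 13, 13 and 7 in G-NHA9Midi, 4, 3, 10, 6 and 14 in G-NHA9Midi–21FGAA and 2, 0, 6, 6 and 1 in G-NHA9–ΔDNA. All groups overlapped, the highest count of any library was 15, and the gene was under the filter, so no difference was detectable at this depth.

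The relative use of the MEIS paralogs was tested through the log2 ratio of their counts in each library, with an exact two-sided permutation test over the libraries. In all, 6 pairs of members and 10 comparisons gave 60 tests, adjusted together by Benjamini-Hochberg, of which 47 passed. Pairs share members and comparisons share libraries, so these tests are not independent of each other. The members were chosen with earlier results of these data known, and pairs of other genes were not tested. The count that passed is therefore no independent evidence about these paralogs. With 5 libraries a group the smallest p is 0.00794, 0.0111 after adjustment. The log2 ratio of Meis1 to Meis3 was 1.09 ± 0.53 (SD, n = 5) in the empty vector and 3.58 ± 0.30 in G-NHA9, a 5.62-fold difference at the smallest p. The ratio was also above the empty vector in G-NHA9Midi (difference, 2.17), where Meis3 was lower than in the empty vector and Meis1 overlapped it. The same held for the ratio in G-NHA9–21FGAA (difference, 1.83), G-NHA9–8FA (1.17) and G-NHA9–ΔDNA (1.12), each above the empty vector. In G-NHA9Midi–21FGAA the ratio did not pass (0.32; exact permutation test, adjusted p = 0.434). Against G-NHA9 the ratio was lower in G-NHA9–8FA (-1.33) and G-NHA9–ΔDNA (-1.37), and the differences for G-NHA9Midi (-0.32) and G-NHA9–21FGAA (-0.66) did not pass (adjusted p = 0.108 and 0.115, exact permutation test).

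Levels of different genes were compared per length, as CPM per kilobase of the union of a gene's exons. On that scale Meis1 made up 39.2 ± 8.32% (SD, n = 5) of the summed level of Meis1, Meis2 and Meis3 in the empty vector, less than Meis3, and 78.1 ± 3.64% in G-NHA9. The summed level was 3.32 ± 0.282 CPM per kb in the empty vector, 4.42 ± 0.377 in G-NHA9 and 4.39 ± 0.360 in G-NHA9–21FGAA. In G-NHA9–8FA and G-NHA9Midi it was 1.81 ± 0.297 and 1.52 ± 0.327 CPM per kb, the only groups in which the sum lay below every empty vector library. Meis1 held 73.7 ± 2.49% of that small sum in G-NHA9Midi and 58.6 ± 5.81% in G-NHA9–8FA, and 68.7 ± 10.1% in G-NHA9–21FGAA, 58.1 ± 6.05% in G-NHA9–ΔDNA and 44.5 ± 10.7% in G-NHA9Midi–21FGAA. The share of Meis1 in G-NHA9Midi was thus near that in G-NHA9 at a much lower level.

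**Figure D2:**
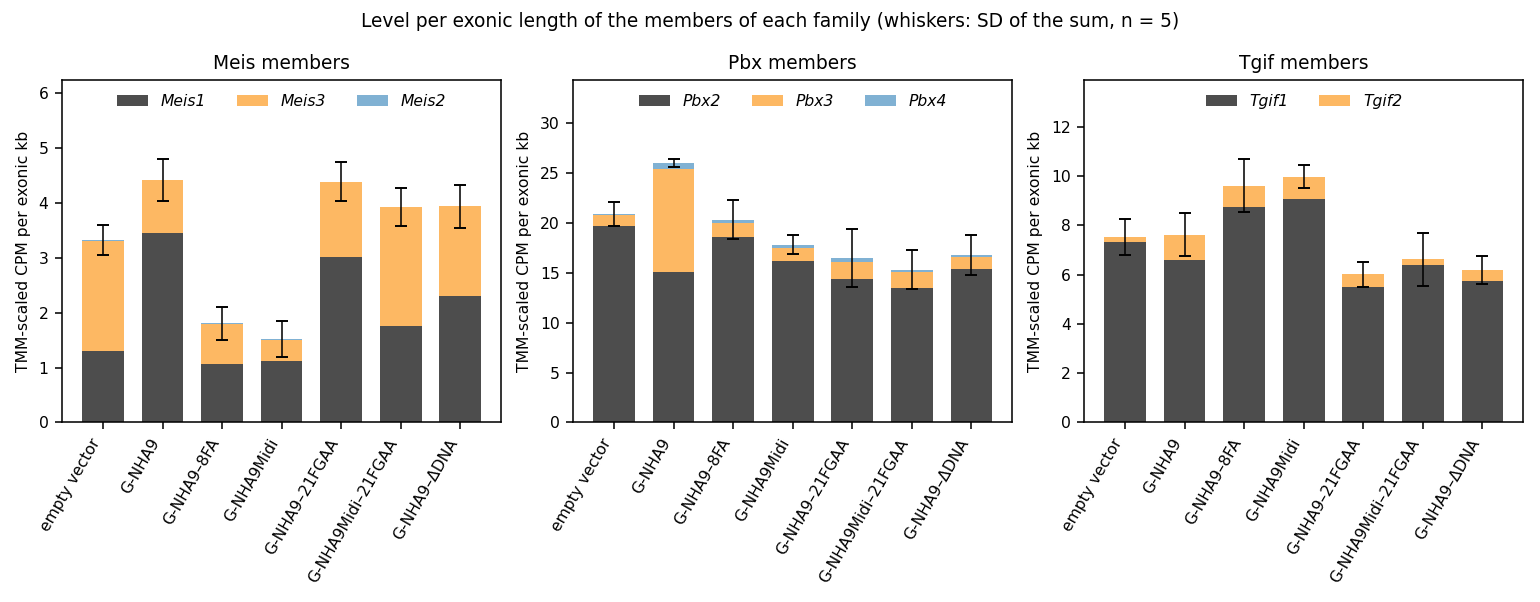
Stacked mean levels per exonic length (TMM-scaled CPM per exonic kb, linear axis from 0) of the Meis, Pbx and Tgif members in the 7 groups; whiskers are the SD of the summed level over 5 libraries. Pbx3 takes 39.9 ± 5.24% of the Pbx stack in G-NHA9 and at most 10.8% in any other group, and the Meis stacks of G-NHA9–8FA and G-NHA9Midi are the lowest.

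Pbx3, a HOX partner that also binds MEIS proteins, was the member with the largest difference in G-NHA9. It stood at 6.86, 5.35, 6.42, 7.40 and 6.09 CPM in the empty vector (mean 6.43 ± 0.777 CPM, SD, n = 5). G-NHA9 libraries had 65.9, 60.7, 52.4, 63.4 and 73.9 CPM (mean 63.2 ± 7.82 CPM, SD, n = 5; log2 fold change, 3.30 ± 0.15 (SE); adjusted p = 2.71e-17). Every one of them was above every library of the other 6 groups.

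In the mutants Pbx3 stayed close to the empty vector level. G-NHA9–21FGAA libraries were at 10.1, 8.93, 8.22, 11.5 and 12.9 CPM, above every empty vector library and 1.61-fold higher in the fit (log2 fold change, 0.69 ± 0.14 (SE); adjusted p = 4.38e-04). G-NHA9Midi–21FGAA libraries gave 8.62, 8.12, 9.55, 8.64 and 12.8 CPM, also without overlap (log2 fold change, 0.58 ± 0.14 (SE); adjusted p = 0.00493). In G-NHA9–8FA the libraries had 8.30, 8.67, 10.0, 7.32 and 9.38 CPM, with a single library inside the empty vector range (log2 fold change, 0.44 ± 0.14 (SE); adjusted p = 0.0165). This call did not hold with no low-count filter (adjusted p = 0.0549), without empty vector library 2 (0.0643) or without G-NHA9–8FA library 3 (0.0600). G-NHA9Midi libraries were at 7.73, 8.94, 8.57, 6.69 and 7.60 CPM and G-NHA9–ΔDNA libraries at 7.07, 5.66, 8.40, 8.92 and 6.54 CPM. Both overlapped the empty vector, and neither difference passed (log2 fold change, 0.30 with a 95% interval of 0.03 to 0.57; adjusted p = 0.0846 for G-NHA9Midi; log2 fold change, 0.19 with a 95% interval of -0.08 to 0.46; adjusted p = 0.382 for G-NHA9–ΔDNA).

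Set against G-NHA9, Pbx3 was 6.11-fold lower in G-NHA9–21FGAA (log2 fold change, -2.61 ± 0.14 (SE); adjusted p = 5.13e-15) and 7.24-fold lower in G-NHA9–8FA (log2 fold change, -2.86 ± 0.14 (SE); adjusted p = 2.11e-15). It was 8.00-fold lower in G-NHA9Midi (log2 fold change, -3.00 ± 0.15 (SE); adjusted p = 5.88e-16) and 8.64-fold lower in G-NHA9–ΔDNA (log2 fold change, -3.11 ± 0.15 (SE); adjusted p = 7.49e-17). G-NHA9–21FGAA and G-NHA9–8FA, whose Meis1 levels did not overlap, had overlapping Pbx3 levels (log2 fold change, 0.24 with a 95% interval of -0.03 to 0.51; adjusted p = 0.178).

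**Figure D3:**
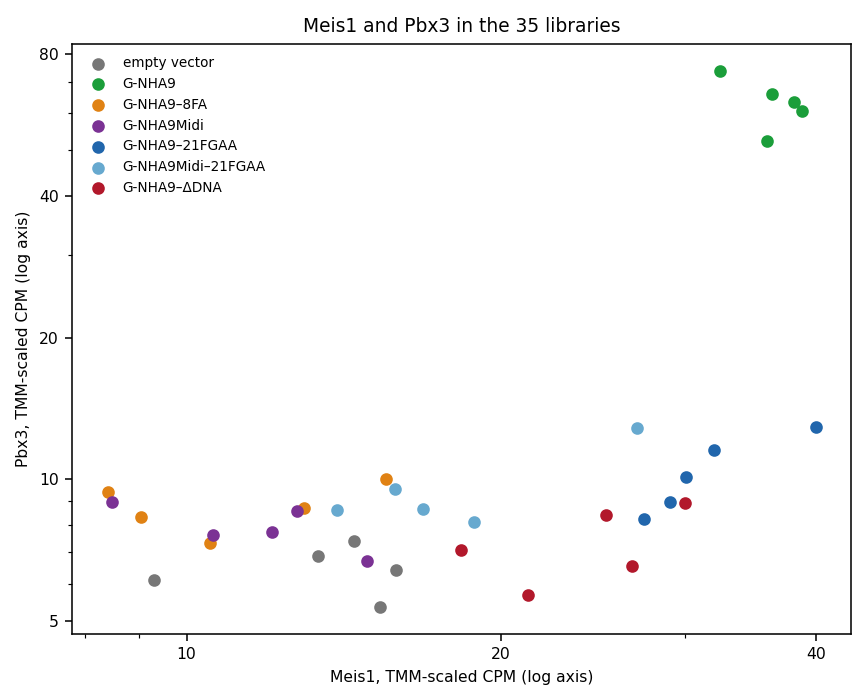
Meis1 (horizontal) against Pbx3 (vertical), both in TMM-scaled CPM on log axes, one point per library for the 35 libraries, coloured by construct. The G-NHA9 libraries stand alone at the upper right, and the G-NHA9–21FGAA libraries have Meis1 at 27.4 to 39.99 CPM with Pbx3 at 8.22 to 12.9 CPM.

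The log2 ratio of Meis1 to Pbx3 put this in numbers. It was 1.07 ± 0.35 (SD, n = 5) in the empty vector and -0.79 ± 0.25 in G-NHA9, a difference of -1.87. In G-NHA9–8FA the ratio was also lower than in the empty vector (difference, -0.73; exact permutation test, adjusted p = 0.0207). In G-NHA9–21FGAA it was 1.62 ± 0.107 and in G-NHA9–ΔDNA 1.73 ± 0.26, in both above the empty vector (exact permutation test, adjusted p = 0.0207 and 0.0207). All 4 mutants set against G-NHA9 had a higher ratio: the differences were 2.52 for G-NHA9–ΔDNA, 2.42 for G-NHA9–21FGAA, 1.35 for G-NHA9Midi and 1.13 for G-NHA9–8FA, each at an adjusted p of 0.0111 in the exact permutation test.

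One marker list had its highest sums where Pbx3 was high. The 6 stromal markers summed to 3.79 to 7.38 CPM in the empty vector and 52.4 to 74.6 in G-NHA9, against 9.34 to 22.7 in G-NHA9–8FA, 13.9 to 21.8 in G-NHA9Midi, 6.42 to 12.5 in G-NHA9–21FGAA, 4.99 to 5.49 in G-NHA9Midi–21FGAA and 5.23 to 7.73 in G-NHA9–ΔDNA. Of the 4 stromal markers tested in G-NHA9, 2 were higher, against 16.9% of all genes tested. These were Pdgfrb and Lepr, which encode a growth factor receptor and the leptin receptor. The collagen genes Col1a1 and Col1a2 were tested and not called, at means of 0.320 and 0.986 CPM in G-NHA9, and Col3a1 and Cxcl12 were under the filter. The part of stromal cells in the Pbx3 difference was not tested.

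Pbx2, the broadly expressed PBX paralog, was by level per exonic length the main one of the 3 PBX members in every group (in G-NHA9 not when the longest transcript served as length). The empty vector libraries lay at 63.7 to 75.6 CPM (mean 71.7 ± 4.67 CPM, SD, n = 5). G-NHA9 libraries lay at 46.8 to 61.2 CPM, all below the empty vector (log2 fold change, -0.38 ± 0.12 (SE); adjusted p = 0.0128). The difference no longer passed without TMM scaling (adjusted p = 0.122) or in the 8-week libraries alone (0.0637). Levels in G-NHA9–21FGAA were 39.3 to 63.4 CPM (log2 fold change, -0.45 ± 0.12 (SE); adjusted p = 0.00491) and in G-NHA9Midi–21FGAA 40.2 to 57.1 CPM (log2 fold change, -0.55 ± 0.12 (SE); adjusted p = 0.00249), both without overlap with the empty vector.

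In G-NHA9–ΔDNA, Pbx2 was at 47.7 to 67.1 CPM, with some overlap (log2 fold change, -0.36 ± 0.12 (SE); adjusted p = 0.0346). It fell short of the threshold without TMM scaling (adjusted p = 0.126), with no low-count filter (0.0959), in the 8-week libraries alone (0.123), without empty vector library 2 (0.0685), 3 (0.0711), 4 (0.0580) or 5 (0.0685) or without G-NHA9–ΔDNA library 1 (0.0556), 2 (0.0602), 3 (0.108) or 4 (0.0884). G-NHA9–8FA, at 58.8 to 78.0 CPM, and G-NHA9Midi, at 55.5 to 64.0 CPM, did not pass the test (log2 fold change, -0.08 with a 95% interval of -0.32 to 0.15; adjusted p = 0.651 and log2 fold change, -0.28 with a 95% interval of -0.52 to -0.05; adjusted p = 0.0580). With RLE size factors in place of TMM, G-NHA9Midi did pass (log2 fold change, -0.30; edgeR's quasi-likelihood test, adjusted p = 0.0414). None of the 4 mutants set against G-NHA9 differed from it in Pbx2 past the threshold, with adjusted p from 0.0891 to 0.925 in edgeR's quasi-likelihood test. Between mutants, it was lower in G-NHA9–21FGAA than in G-NHA9–8FA (log2 fold change, -0.37 ± 0.12 (SE); adjusted p = 0.0169). The call was lost without TMM scaling (adjusted p = 0.0848), with no low-count filter (0.0726), in a fit of these groups alone (0.0893), without G-NHA9–8FA library 2 (0.0806) or without G-NHA9–21FGAA library 4 (0.0785) or 5 (0.116).

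Pbx4, a paralog known mainly from the testis, was low in all groups and moved in the direction of Pbx3. Its CPM was 0.312, 0.184, 0.231, 0.465 and 0.429 in the empty vector, from 8 to 14 counts a library. G-NHA9 libraries had 1.08, 1.44, 1.22, 1.21 and 1.14 CPM, from 39 to 68 counts, 3.83-fold higher and above every empty vector library (log2 fold change, 1.94 ± 0.27 (SE); adjusted p = 9.86e-07).

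Pbx4 was above the empty vector without overlap in 4 of the mutants as well. It was at 0.662 to 1.17 CPM in G-NHA9–21FGAA (log2 fold change, 1.502 ± 0.27 (SE); adjusted p = 1.22e-04), 0.672 to 0.878 CPM in G-NHA9–8FA (log2 fold change, 1.26 ± 0.27 (SE); adjusted p = 6.56e-04) and 0.638 to 0.865 CPM in G-NHA9Midi (log2 fold change, 1.21 ± 0.27 (SE); adjusted p = 5.12e-04). G-NHA9–ΔDNA libraries had 0.517, 0.492, 0.533, 0.476 and 1.05 CPM, of which one stands apart (log2 fold change, 0.95 ± 0.27 (SE); adjusted p = 0.0159). This call did not hold in a fit of these groups alone (adjusted p = 0.0678), without empty vector library 2 (0.0608) or 3 (0.0518) or without G-NHA9–ΔDNA library 5 (0.0712). In G-NHA9Midi–21FGAA the libraries ranged from 0.217 to 0.802 CPM, with overlap (log2 fold change, 0.78 ± 0.27 (SE); adjusted p = 0.0453). The difference no longer passed with no low-count filter (adjusted p = 0.0907), in a fit of these groups alone (0.169), without empty vector library 1 (0.0595), 2 (0.134) or 3 (0.114) or without G-NHA9Midi–21FGAA library 2 (0.0675), 3 (0.139), 4 (0.0786) or 5 (0.0676).

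Pbx4 was lower than in G-NHA9 in G-NHA9–ΔDNA (log2 fold change, -0.99 ± 0.25 (SE); adjusted p = 0.00338) and in G-NHA9Midi (log2 fold change, -0.73 ± 0.24 (SE); adjusted p = 0.0335). The G-NHA9Midi call was lost with no low-count filter (adjusted p = 0.0914), without G-NHA9 library 2 (0.0826), 4 (0.0582) or 5 (0.0506) or without G-NHA9Midi library 1 (0.0764), 3 (0.0669) or 4 (0.0722). The differences for G-NHA9–8FA (log2 fold change, -0.68 with a 95% interval of -1.16 to -0.20; adjusted p = 0.0567) and G-NHA9–21FGAA (log2 fold change, -0.43 with a 95% interval of -0.91 to 0.04; adjusted p = 0.251) did not pass.

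Per length, Pbx2 made up 94.2 ± 0.944% (SD, n = 5) of the summed level of Pbx2, Pbx3 and Pbx4 in the empty vector, Pbx3 5.06 ± 0.775% and Pbx4 0.699 ± 0.254%. In G-NHA9 the shares were 58.0 ± 5.17% for Pbx2, 39.9 ± 5.24% for Pbx3 and 2.12 ± 0.226% for Pbx4. Pbx3 held 10.8 ± 3.87% in G-NHA9–21FGAA, 10.4 ± 2.95% in G-NHA9Midi–21FGAA, 7.30 ± 1.11% in G-NHA9Midi, 7.28 ± 1.97% in G-NHA9–ΔDNA and 7.05 ± 0.795% in G-NHA9–8FA. The shares rest on the length used: with the longest transcript of each gene in place of the union of its exons, the mean share of Pbx3 became 54.1% in G-NHA9 and 8.74% in the empty vector, so that Pbx3 rather than Pbx2 led in G-NHA9. The summed level of these PBX members was 26.0 ± 0.403 CPM per kb in G-NHA9 and 20.9 ± 1.24 in the empty vector, and between 15.3 ± 1.95 and 20.3 ± 1.99 in the mutants.

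Within libraries, the log2 ratio of Pbx3 to Pbx2 rose from -3.48 ± 0.24 (SD, n = 5) in the empty vector to 0.20 ± 0.32 in G-NHA9, 12.8-fold. This ratio passed the exact permutation test in 9 of the 10 comparisons, the exception being G-NHA9–ΔDNA against the empty vector (difference, 0.54; adjusted p = 0.0583). The ratio of Pbx3 to Pbx4 differed by 1.35 (log2) between G-NHA9 and the empty vector, 2.55-fold: Pbx3 rose by more than Pbx4. In G-NHA9–8FA and G-NHA9Midi the same ratio was lower than in the empty vector, by differences of -0.82 and -0.93 (adjusted p = 0.0111 and 0.0111 in the exact permutation test).

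Pknox1 (Prep1), a PBX partner that competes with MEIS proteins, was highest in G-NHA9Midi. It stood at 22.4, 25.3, 20.4, 20.3 and 14.1 CPM in the empty vector and at 22.0, 23.0, 24.6, 18.2 and 22.3 CPM in G-NHA9, with overlap and no difference past the threshold (log2 fold change, 0.10 with a 95% interval of -0.10 to 0.31; adjusted p = 0.495). G-NHA9Midi libraries had 37.3, 45.3, 42.7, 37.0 and 44.1 CPM, above every library of every other group and 2.01-fold higher than the empty vector (log2 fold change, 1.01 ± 0.106 (SE); adjusted p = 3.38e-09). Against G-NHA9 the difference was nearly as large (log2 fold change, 0.91 ± 0.106 (SE); adjusted p = 1.18e-07). G-NHA9–8FA libraries were next, at 29.6, 25.9, 28.9, 27.9 and 31.4 CPM (log2 fold change, 0.49 ± 0.105 (SE); adjusted p = 6.57e-04), below those of G-NHA9Midi (log2 fold change, 0.52 ± 0.10 (SE); adjusted p = 0.00215 for G-NHA9Midi against G-NHA9–8FA).

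Mutating the FG pairs of G-NHA9Midi went with lower Pknox1, at 22.4, 23.4, 26.8, 29.4 and 26.2 CPM (log2 fold change, -0.69 ± 0.10 (SE); adjusted p = 2.41e-06). That level overlapped the empty vector (log2 fold change, 0.32 ± 0.105 (SE); adjusted p = 0.0312). It fell short of the threshold in a fit of these groups alone (adjusted p = 0.134), in the 8-week libraries alone (0.259), without empty vector library 3 (0.0505), 4 (0.0581) or 5 (0.103) or without G-NHA9Midi–21FGAA library 3 (0.0664), 4 (0.0973) or 5 (0.0504). G-NHA9–21FGAA libraries were at 25.3 to 29.5 CPM, just above the highest empty vector library (log2 fold change, 0.40 ± 0.105 (SE); adjusted p = 0.00464). The call was lost in the 8-week libraries alone (adjusted p = 0.0672). G-NHA9–ΔDNA, at 20.8 to 23.7 CPM, overlapped both the empty vector (log2 fold change, 0.13 with a 95% interval of -0.08 to 0.33; adjusted p = 0.450) and G-NHA9 (log2 fold change, 0.02 with a 95% interval of -0.18 to 0.23; adjusted p = 0.922).

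Small differences in Pknox1 from G-NHA9 passed in the other mutants: 1.304-fold higher in G-NHA9–8FA (log2 fold change, 0.38 ± 0.105 (SE); adjusted p = 0.0122) and 1.23-fold higher in G-NHA9–21FGAA (log2 fold change, 0.30 ± 0.10 (SE); adjusted p = 0.0465). The G-NHA9–8FA call was lost without TMM scaling (adjusted p = 0.105) or without G-NHA9 library 4 (0.0642). The G-NHA9–21FGAA call was lost with no low-count filter (adjusted p = 0.0723), in a fit of these groups alone (0.0531), without G-NHA9 library 1 (0.0607) or 4 (0.125) or without G-NHA9–21FGAA library 3 (0.0873), 4 (0.0674) or 5 (0.0848). The log2 ratio of Meis1 to Pknox1, which set these partners of PBX side by side, was -0.58 ± 0.16 (SD, n = 5) in the empty vector, 0.72 ± 0.21 in G-NHA9 and -1.83 ± 0.42 in G-NHA9Midi. It passed the exact permutation test in 9 of 10 comparisons, with differences from the empty vector of 1.31 in G-NHA9, 0.80 in G-NHA9–21FGAA, 0.68 in G-NHA9–ΔDNA, -0.80 in G-NHA9–8FA and -1.25 in G-NHA9Midi.

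Tgif2, the lower expressed of the TGIF repressors, was higher than in the empty vector in 5 of the 6 constructs. The empty vector libraries had 1.01, 0.620, 0.531, 0.896 and 0.857 CPM (mean 0.782 ± 0.199 CPM, SD, n = 5). G-NHA9 libraries had 3.28, 3.07, 3.13, 5.34 and 4.60 CPM, 4.98-fold higher (log2 fold change, 2.32 ± 0.30 (SE); adjusted p = 2.62e-07). G-NHA9Midi libraries, at 2.53, 4.17, 3.48, 3.02 and 4.59 CPM (log2 fold change, 2.19 ± 0.30 (SE); adjusted p = 3.69e-07), and G-NHA9–8FA libraries, at 2.14, 4.06, 2.72, 4.06 and 3.85 CPM (log2 fold change, 2.11 ± 0.30 (SE); adjusted p = 1.76e-06), overlapped those of G-NHA9. All of them lay above every empty vector library, and neither mutant differed from G-NHA9 past the threshold (log2 fold change, -0.13 with a 95% interval of -0.66 to 0.40; adjusted p = 0.783 for G-NHA9Midi; log2 fold change, -0.21 with a 95% interval of -0.74 to 0.32; adjusted p = 0.665 for G-NHA9–8FA).

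Intermediate levels of Tgif2 were found in G-NHA9–21FGAA, at 1.38, 1.43, 1.27, 2.04 and 3.63 CPM (log2 fold change, 1.32 ± 0.29 (SE); adjusted p = 0.00116), and in G-NHA9–ΔDNA, at 1.74, 1.92, 1.91, 1.498 and 1.72 CPM (log2 fold change, 1.17 ± 0.30 (SE); adjusted p = 0.00654), again with no overlap with the empty vector. Both were lower than G-NHA9 (log2 fold change, -0.997 ± 0.27 (SE); adjusted p = 0.00916 for G-NHA9–21FGAA; log2 fold change, -1.14 ± 0.28 (SE); adjusted p = 0.00252 for G-NHA9–ΔDNA). The G-NHA9–21FGAA call was lost in a fit of these groups alone (adjusted p = 0.0507). G-NHA9–21FGAA was also lower than G-NHA9–8FA (log2 fold change, -0.79 ± 0.27 (SE); adjusted p = 0.0257). This call did not hold without TMM scaling (adjusted p = 0.0891), with no low-count filter (0.0523), in a fit of these groups alone (0.0778), without G-NHA9–8FA library 2 (0.0780), 4 (0.0825) or 5 (0.0597) or without G-NHA9–21FGAA library 1 (0.0758), 2 (0.0837) or 3 (0.0730).

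In G-NHA9Midi–21FGAA, Tgif2 stood at 0.409, 1.16, 0.783, 0.552 and 1.31 CPM, overlapping the empty vector (log2 fold change, 0.14 with a 95% interval of -0.45 to 0.73; adjusted p = 0.800) and 4.14-fold lower than in G-NHA9Midi, without overlap (log2 fold change, -2.05 ± 0.29 (SE); adjusted p = 5.38e-07). Tgif2 and Meis3 therefore moved in opposite directions when the FG pairs of G-NHA9Midi were mutated, and both then overlapped the empty vector. The 5 early granule markers (Mpo, Elane, Prtn3, Ctsg and Ms4a3) were also called against the empty vector: 4 of them were higher than in the empty vector in G-NHA9, 4 in G-NHA9–8FA, 3 in G-NHA9Midi, 5 in G-NHA9–21FGAA and 5 in G-NHA9–ΔDNA, 0 in G-NHA9Midi–21FGAA, and none was lower in any of these. They summed to 126 to 583 CPM in the empty vector, 1051 to 1428 in G-NHA9, 693 to 2075 in G-NHA9–8FA, 594 to 1610 in G-NHA9Midi, 929.96 to 1077 in G-NHA9–21FGAA, 708 to 1513 in G-NHA9–ΔDNA and 186 to 458 in G-NHA9Midi–21FGAA. Of all genes tested, 16.9% were higher than in the empty vector in G-NHA9, 13.4% in G-NHA9–8FA and 20.5% in G-NHA9Midi. The share was 14.7% in G-NHA9–21FGAA, 9.85% in G-NHA9–ΔDNA and 9.59% in G-NHA9Midi–21FGAA. The part of the early granule markers in the Tgif2 differences was not tested.

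Tgif1, the more abundant repressor, changed by less. The empty vector libraries lay at 36.9 to 46.0 CPM (mean 41.1 ± 4.07 CPM, SD, n = 5) and those of G-NHA9 at 32.1 to 45.4 CPM, overlapping (log2 fold change, -0.15 with a 95% interval of -0.35 to 0.06; adjusted p = 0.315). It was higher than the empty vector in G-NHA9Midi, at 47.7 to 55.8 CPM (log2 fold change, 0.31 ± 0.106 (SE); adjusted p = 0.0190). The difference no longer passed in the 8-week libraries alone (adjusted p = 0.1104), without empty vector library 3 (0.0591) or 4 (0.0596) or without G-NHA9Midi library 1 (0.0522). G-NHA9–8FA, at 41.2 to 55.6 CPM, did not pass (log2 fold change, 0.26 with a 95% interval of 0.05 to 0.46; adjusted p = 0.0706). Levels were lower in G-NHA9–21FGAA, at 28.7 to 33.0 CPM (log2 fold change, -0.41 ± 0.106 (SE); adjusted p = 0.00426), and G-NHA9–ΔDNA, at 29.7 to 37.6 CPM (log2 fold change, -0.35 ± 0.106 (SE); adjusted p = 0.0203). The G-NHA9–21FGAA call was lost without TMM scaling (adjusted p = 0.0788). The G-NHA9–ΔDNA call was lost without TMM scaling (adjusted p = 0.107), with no low-count filter (0.0648), without empty vector library 2 (0.0660) or without G-NHA9–ΔDNA library 2 (0.0572) or 3 (0.0568). G-NHA9Midi–21FGAA, at 30.9 to 46.4 CPM, did not pass (log2 fold change, -0.19 with a 95% interval of -0.40 to 0.02; adjusted p = 0.223).

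Between constructs, Tgif1 was 1.59-fold lower in G-NHA9–21FGAA than in G-NHA9–8FA (log2 fold change, -0.67 ± 0.106 (SE); adjusted p = 9.87e-06) and 1.41-fold lower in G-NHA9Midi–21FGAA than in G-NHA9Midi (log2 fold change, -0.50 ± 0.106 (SE); adjusted p = 2.45e-04), neither with overlap. It was higher than G-NHA9 in G-NHA9Midi (log2 fold change, 0.46 ± 0.106 (SE); adjusted p = 0.00205) and in G-NHA9–8FA (log2 fold change, 0.40 ± 0.106 (SE); adjusted p = 0.00853). The G-NHA9–8FA call was lost in a fit of these groups alone (adjusted p = 0.0531) or without G-NHA9 library 5 (0.0512). G-NHA9–21FGAA did not pass against G-NHA9 (log2 fold change, -0.26 with a 95% interval of -0.47 to -0.05; adjusted p = 0.0896), but it did with the replicate number as a block (log2 fold change, -0.25; adjusted p = 0.0192). Per length, Tgif2 made up 2.72 ± 0.672% (SD, n = 5) of the summed TGIF level in the empty vector, 13.5 ± 3.84% in G-NHA9, 9.26 ± 2.68% in G-NHA9–8FA, 9.34 ± 2.25% in G-NHA9Midi, 8.30 ± 3.59% in G-NHA9–21FGAA, 7.48 ± 1.15% in G-NHA9–ΔDNA and 3.50 ± 1.81% in G-NHA9Midi–21FGAA. The log2 ratio of Tgif1 to Tgif2 differed by -2.45 between G-NHA9 and the empty vector (exact permutation test, adjusted p = 0.0111).

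**Figure D4:**
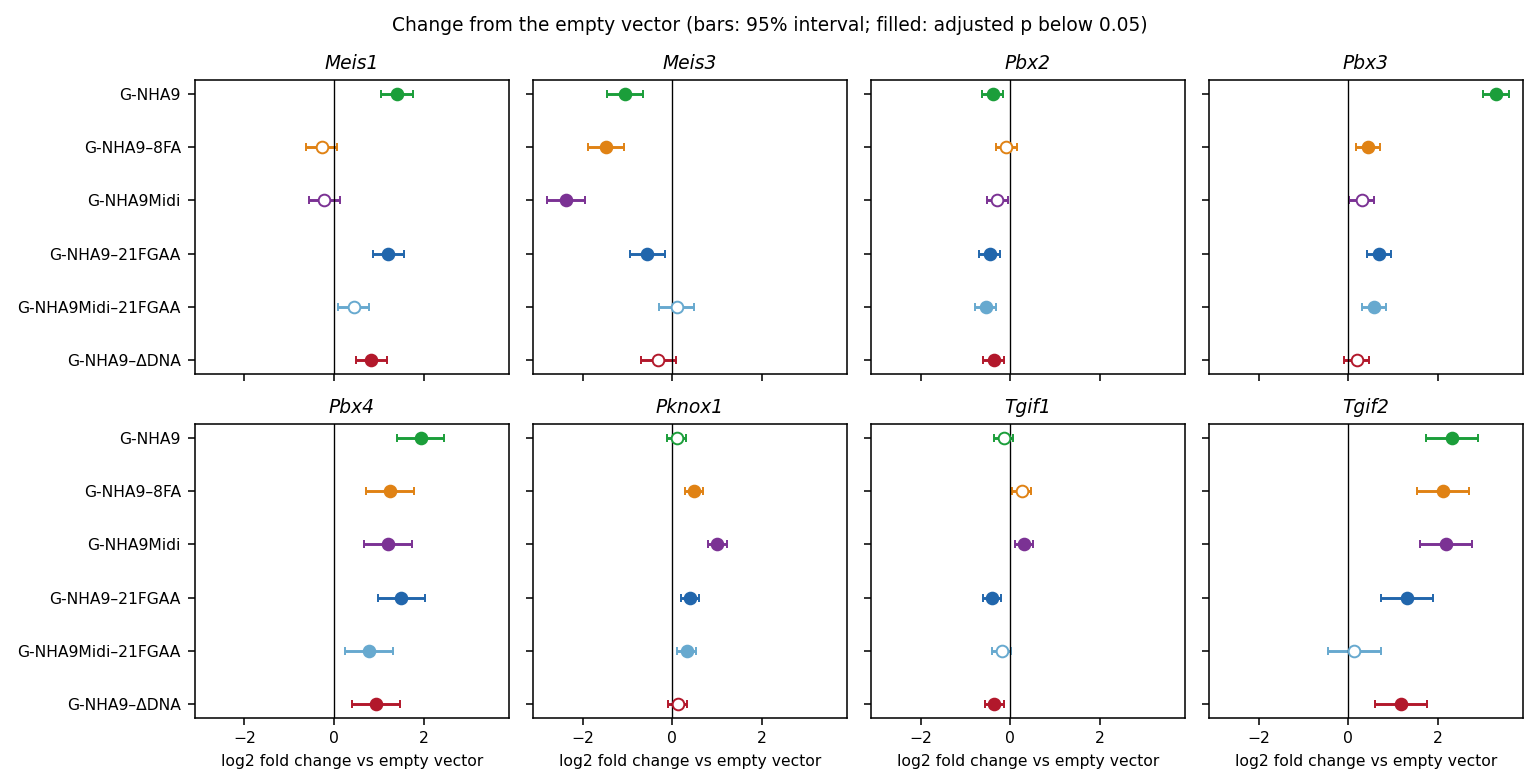
Log2 fold change from the empty vector (horizontal axis) of the 8 tested members in the 6 constructs. Bars are approximate 95% intervals, a normal approximation from the SE of edgeR's quasi-likelihood fit. Filled points have an adjusted p below 0.05 in edgeR's quasi-likelihood test. Pbx3 in G-NHA9 reaches 3.30, and Meis3 lies furthest to the left in G-NHA9Midi, at -2.37. Meis1 has filled points to the right of 0 in G-NHA9, G-NHA9–21FGAA and G-NHA9–ΔDNA, and an open one in G-NHA9Midi–21FGAA, at 0.44.

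Genes that work with TALE proteins were taken from a list of 20 partners and corepressors (Ctbp1, Sin3a, Smad2, Crebbp, Kmt2a and others). All 20 were tested, and few differed: in G-NHA9, 2 were higher and 2 lower than in the empty vector, with a median log2 fold change of -0.11. Ski, a corepressor of SMAD signaling, was at 80.01 ± 20.7 CPM in G-NHA9 against 144 ± 43.7 CPM in the empty vector (log2 fold change, -0.85 ± 0.17 (SE); adjusted p = 1.96e-04), and its relative Skil was at 77.1 ± 19.3 CPM in G-NHA9 against 106 ± 15.0 CPM in the empty vector (log2 fold change, -0.46 ± 0.18 (SE); adjusted p = 0.0436). Psip1 (LEDGF), which tethers menin and MLL to chromatin, was at 49.96 ± 7.54 CPM in G-NHA9 against 32.1 ± 10.7 CPM in the empty vector (log2 fold change, 0.64 ± 0.20 (SE); adjusted p = 0.0136), and the deacetylase gene Hdac1 at 66.7 ± 13.2 CPM in G-NHA9 against 52.8 ± 8.06 CPM in the empty vector (log2 fold change, 0.34 ± 0.13 (SE); adjusted p = 0.0466). In the mutants, the counts higher and lower were 0 and 2 in G-NHA9–8FA, against 13.4% and 13.2% of all genes tested. They were 1 and 1 in G-NHA9Midi (20.5% and 20.0% of all genes) and 3 and 2 in G-NHA9–21FGAA (14.7% and 12.5%). G-NHA9Midi–21FGAA had 1 and 1 (9.59% and 7.32%), and G-NHA9–ΔDNA 2 and 1 (9.85% and 7.35%). In G-NHA9 both shares of the 20 were below the background of genes called higher or lower in that comparison, 16.9% and 15.2%.

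Among 20 genes known as targets of Hoxa9 and Meis1, 13 were higher and 4 lower in G-NHA9 than in the empty vector, against 16.9% and 15.2% of all genes tested (median log2 fold change, 0.81). The target list was chosen with earlier results of these data known, so its excess over all genes is no independent evidence. The list shares Cd34, Kit, Flt3, Hlf and Mecom with the stem and progenitor markers and Pf4 with the megakaryocyte markers. Flt3, a cytokine receptor gene, was at 9.14 ± 1.28 CPM in G-NHA9 against 0.187 ± 0.104 CPM in the empty vector (log2 fold change, 5.61 ± 0.32 (SE); adjusted p = 8.93e-15). Eya1, a transcriptional coactivator gene, was at 32.2 ± 7.38 CPM in G-NHA9 against 2.52 ± 0.413 CPM in the empty vector (log2 fold change, 3.67 ± 0.25 (SE); adjusted p = 7.04e-13), and Cd34, a progenitor surface marker, at 219.96 ± 12.9 CPM in G-NHA9 against 36.9 ± 9.25 CPM in the empty vector (log2 fold change, 2.57 ± 0.19 (SE); adjusted p = 3.47e-12). Mecom, Myb and Hlf, which encode transcription factors of stem and progenitor cells, had log2 fold changes of 2.48, 1.97 and 1.47.

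In the mutants the share of all genes called differed between the comparisons. 11 targets were higher in G-NHA9–8FA and 11 in G-NHA9Midi with 1 and 7 lower; of all genes, 13.4% and 20.5% were higher and 13.2% and 20.0% lower. In G-NHA9–21FGAA, 7 were higher and 1 lower, against 14.7% and 12.5% of all genes. G-NHA9–ΔDNA had 5 higher and none lower, against 9.85% and 7.35%, and G-NHA9Midi–21FGAA 4 higher and 1 lower, against 9.59% and 7.32%. Set against G-NHA9, 4 of the 20 were higher and 12 lower in G-NHA9–ΔDNA, against 10.7% and 11.4% of all genes tested. In G-NHA9–8FA the counts were 0 higher and 9 lower, against 6.43% and 8.04%, in G-NHA9–21FGAA 3 and 7, against 8.91% and 8.34%, and in G-NHA9Midi 4 and 7, against 8.50% and 11.2%.

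The genes whose pattern over the 35 libraries was most like that of Meis1 and Pbx3 were found by Pearson correlation of log2 CPM, over the 12774 genes whose mean level reached 1 CPM; the libraries share groups and culture, so the coefficients are descriptions. For Meis1 these included Myct1 (r = 0.893), Tfr2 (0.889), Abca4 (0.887) and Smim5 (0.856). Myct1 had a mean of 4.31 CPM in the empty vector, 14.4 in G-NHA9, 10.2 in G-NHA9–21FGAA, 7.23 in G-NHA9–ΔDNA, 4.005 in G-NHA9Midi–21FGAA, 3.72 in G-NHA9–8FA and 2.99 in G-NHA9Midi. For Pbx3 they were Phtf2 (r = 0.941), Eya1 (0.920), Gm15448 (0.885), Gm10693 (0.877) and Kcnq3 (0.876); Gm15448 and Gm10693 are neighbours in a multigene family, so that the split of reads between them is uncertain. Phtf2 had a mean of 58.6 CPM in G-NHA9 and 16.5 in the empty vector, and Eya1, which is also in the target list, 32.2 and 2.52 CPM.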

How the data were processed

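Gene counts, deposited by the authors as raw counts for 49671 genes in 35 libraries, were used. Libraries were prepared by the authors with a stranded total RNA kit and sequenced as paired ends. The submitters' processing notes name STAR 2.7.0d, HTSeq 0.11.2, DESeq2 and the build mm10; the strand setting and annotation release are not given in the sources used here.

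Counts were fitted over all 7 groups with edgeR 4.0.16 (R 4.3.3; TMM scaling, filterByExpr, quasi-likelihood test, Benjamini-Hochberg adjustment, threshold 0.05), which kept 17166 genes with 99.96% of the counts. Levels per length used exon unions of GENCODE M21, in which 99.5% of gene identifiers were found without their version. Paralog ratios were log2 ratios of counts within a library (0.5 added to each count), tested by exact permutation. Depth limits low members: 3 counts equal at most 0.0996 CPM, and intervals cover counting and library spread only. The 95% intervals are normal approximations from the SE and are not adjusted for the number of genes. They are slightly narrower than the test itself would give. Scripts were tested on simulated counts.

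The members and gene lists were chosen with earlier results of these data known. Genes named besides the members are, per list, up to 6 called genes with the largest change in G-NHA9 and a mean of at least 1 CPM, and the 5 genes most correlated with Meis1 and with Pbx3. One list and 1 of these genes are not reported here. Replicate numbers are shared by the groups; in 5 of 13 comparisons every same-numbered pair of libraries deviated together (r over 0.1), so the number was also entered as a blocking factor. The alternatives were other scalings, filters, tools (DESeq2 1.42.0), samples and leaving out each library; the 8-week libraries alone were added after the data were seen. The methods speak of transduction in triplicate, whereas 5 libraries a group were analysed.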

Additional observations from a re-analysis of the deposited data

Results flagged for a closer look

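Of 56 sets of 5 libraries (8 tested members in 7 groups), 1 held a library far from the other 4: Pbx4 in G-NHA9–ΔDNA library 5 was at 1.05 CPM, and the others were between 0.476 and 0.533 CPM. The gap to the nearest library was 0.901 of the whole range of the group, above the 95% critical value of 0.71 for 5 values; chance flags about 1 in 20 such sets. Without this library, the log2 fold change of Pbx4 in G-NHA9–ΔDNA against the empty vector was 0.67 (edgeR's quasi-likelihood test, adjusted p = 0.0712).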

How the results depend on the processing

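Of the 63 calls of members, 44 held under every alternative tried (for Pbx4, under every one that tested it) and none reversed. All 63 held with RLE size factors, with DESeq2 1.42.0, and with the level of 1 sex-linked transcript, Xist, as a covariate. With a filter at a mean of 1 CPM, which left Pbx4 untested, 55 held. Without TMM scaling, which moved the median log2 fold change of all genes to as much as 0.19 (G-NHA9 against the empty vector), 8 calls were lost, with no low-count filter 9, in fits of the 2 groups compared 9, in the 8-week libraries alone (chosen after seeing the data) 6, and in 61 of 630 fits that left out 1 library; the cause was not tested. The number of members called fell from 5 to 3 for G-NHA9–ΔDNA set against the empty vector, from 5 to 3 in G-NHA9–21FGAA against G-NHA9–8FA, both without TMM scaling and with no low-count filter, the latter also to 3 in a fit of those 2 groups. In such fits of 2 groups it fell from 4 to 2 in G-NHA9Midi–21FGAA against the empty vector and from 3 to 1 in G-NHA9–21FGAA against G-NHA9. Leaving out 1 library gave 6 to 7 members called in G-NHA9, 4 to 6 in G-NHA9–8FA, 4 to 5 in G-NHA9Midi, 7 to 8 in G-NHA9–21FGAA, 2 to 5 in G-NHA9Midi–21FGAA (2 without empty vector library 3 or any of its own libraries 3, 4 and 5) and 2 to 5 in G-NHA9–ΔDNA (2 without empty vector library 2; 3 without empty vector library 3 or its own libraries 2 or 3), each against the empty vector. Against G-NHA9 it gave 3 to 5 in G-NHA9–8FA, 5 to 7 in G-NHA9Midi, 2 to 4 in G-NHA9–21FGAA and 4 to 5 in G-NHA9–ΔDNA. It gave 5 to 6 for G-NHA9Midi–21FGAA against G-NHA9Midi, 3 to 5 for G-NHA9–21FGAA against G-NHA9–8FA (3 without G-NHA9–8FA library 2) and 2 for G-NHA9Midi against G-NHA9–8FA.

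With the replicate number as a block, all 63 calls held and 5 further calls were gained, 1 each in G-NHA9–8FA (6 members called) and G-NHA9Midi (6) against the empty vector, G-NHA9–8FA (5) and G-NHA9–21FGAA (4) against G-NHA9, and G-NHA9Midi–21FGAA (6) against G-NHA9Midi; the pairing changed no other call. The sign-flip test of paired ratios was not run, since 5 pairs allow no p under 0.0625. Of the 47 ratio calls, that of Pbx3 to Pbx4 in G-NHA9–21FGAA against the empty vector was lost with a prior of 2 (difference, -0.70) and in 6 of 470 fits without 1 library. With the longest transcript as length, 8 of 14 shares moved by more than 1 SD: Pbx3 to 8.74% in the empty vector, 54.1% in G-NHA9 and 12.0% to 17.7% elsewhere, and Meis1 to 70.1% in G-NHA9Midi. Counts of 15 or fewer a library limit Meis2, and 8 to 14 in the empty vector limit Pbx4.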
